A study of Mus musculus with 6 samples.

Results

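Surface molecules of mature B cells and the receptors for the survival factors BAFF and APRIL were examined in sorted pro-B and pre-B cells of BALB/c mice, an inbred laboratory strain. The set holds 8 genes: Ms4a1, Cr2, Fcer2a, Cd40 and Cd72, which encode surface molecules of B cells, and the receptor genes Tnfrsf13b, Tnfrsf13c and Tnfrsf17. Every probe set that the platform annotation pairs with 1 of these genes alone was taken, which gave 8 probe sets, 1 for each gene, of 23410 with at least 1 gene. The old group comprised 3 arrays from mice at 24 months of age, and the young group comprised 3 arrays from mice at 2 months. The cells of both groups were unmanipulated after sorting, and each array was hybridised with cDNA amplified from 100 ng of RNA. The labels name neither the gates of the sort nor the number of mice behind an array, so p-values measure only the spread between these arrays.

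B cell progenitors rearrange the heavy chain gene at the pro-B stage and the light chain gene at the pre-B stage, and express a complete antigen receptor only afterwards. The mature B cell then relies on BAFF, a cytokine of the tumour necrosis factor family, which it binds through BAFF-R (Tnfrsf13c), TACI (Tnfrsf13b) and, mainly in plasma cells, BCMA (Tnfrsf17). BAFF-R carries the survival signal of mature B cells, TACI binds BAFF and APRIL and can restrain B cell numbers, and BCMA supports long-lived plasma cells. CD40, a further receptor of the same family, receives help from T cells, and it shares TRAF adaptors and the non-canonical NF-kB pathway with BAFF-R.

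Levels are given as log2 intensity, and each difference is the old mean minus the young mean. The old group was not uniform. The interquartile range over probe sets was 1.41 and 1.40 for old replicates 1 and 2 and 2.44 for old replicate 3, against 2.76 to 2.98 for the young arrays. The level of background was set per array at the 95th percentile of 1210 probe sets for odorant and pheromone receptors, genes of sensory neurons. It lay at 6.29, 6.21 and 5.02 on old replicates 1, 2 and 3, against 4.57 to 4.75 on the young arrays. The share of tested probe sets above it was 14.8% and 17.1% for old replicates 1 and 2 and 49.2% for old replicate 3, against 52.9% to 56.3% for the young arrays. Results are therefore also given without old replicate 3 and without old replicates 1 and 2. Markers of the labelled cells were present on the young arrays, where 12 to 13 of 13 pro-B and pre-B markers and 5 of 5 B lineage markers lay above background. On old replicates 1, 2 and 3 the counts were 4, 6 and 12 of the pro-B and pre-B markers and 2, 3 and 5 of the B lineage markers.

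Most of the 8 genes were detected on the young arrays. On each young array and on old replicate 3, 7 of 8 lay above background, all but Tnfrsf17, whereas 3 and 2 of 8 did so on old replicates 1 and 2. Ms4a1 and Cd72 lost most of their signal on old replicates 1 and 2, while Cd40 and Tnfrsf13c stayed above background on all 6 arrays. With the 99th percentile as the level of background, which was 7.32 and 7.29 on old replicates 1 and 2, these genes too lay within it there. With 3 old and 3 young arrays no gene of the set passed an adjusted p of 0.05 (limma, Benjamini-Hochberg over all tested probe sets). The same fit called 0 of 23410 probe sets, or 0% of all tested, with 10966 at an unadjusted p under 0.05. In these bulk samples, fewer cells that express a gene and less RNA of it per cell cannot be told apart. Nor can they be told apart from the narrower spread of signal over all probe sets on old replicates 1 and 2. The labels give no RNA quality of any array, and its part was not tested.

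**Figure D1:**
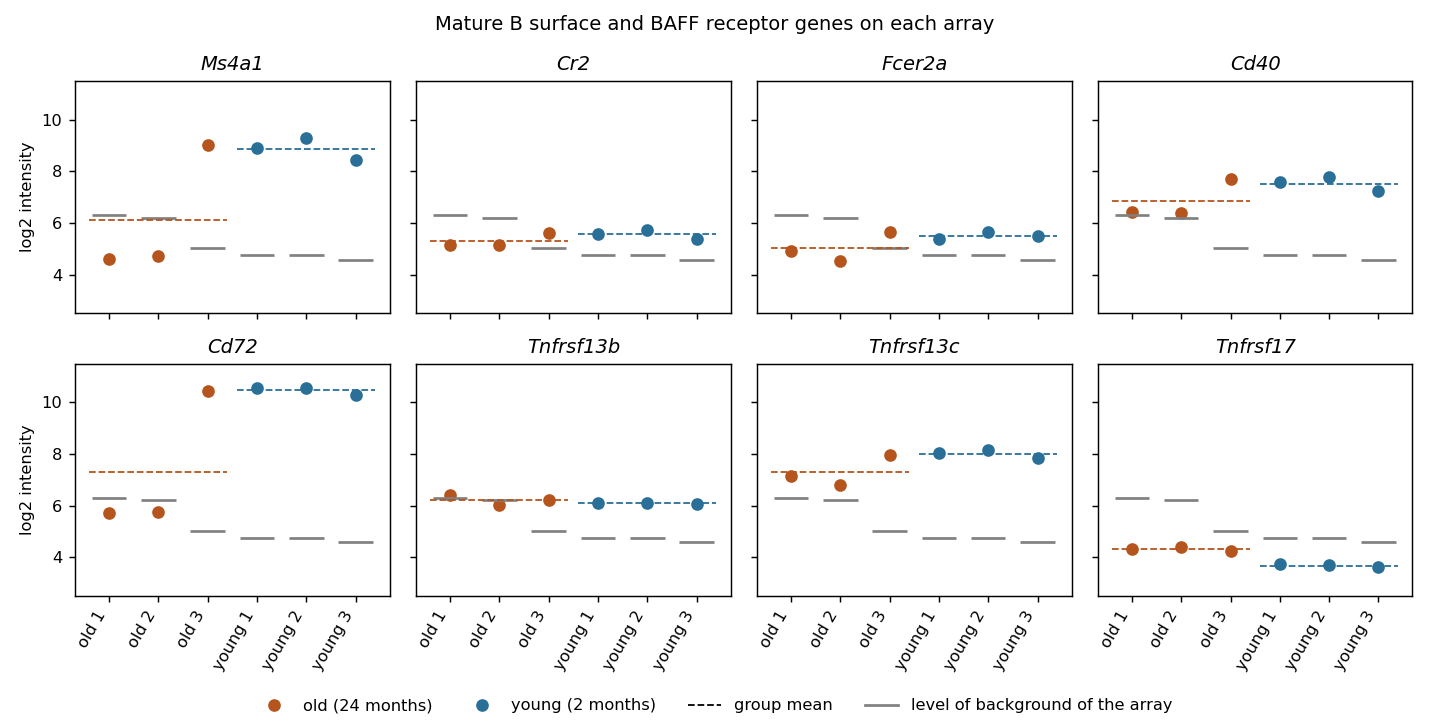
Log2 intensity of the 8 genes on each array (points; old arrays left of young arrays), with the group means (dashed) and each array's level of background (grey bars). Ms4a1 and Cd72 stand at 4.60 to 5.75 on old replicates 1 and 2 and at 8.45 to 10.54 on the other 4 arrays, and Tnfrsf17 lies under the grey bar on all 6.

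Cd72, a C-type lectin of the B cell surface that dampens antigen receptor signalling, differed most between the groups. It stood at 5.71, 5.75 and 10.42 on old replicates 1, 2 and 3, against 10.54, 10.54 and 10.30 on the young arrays. Old replicate 3 thus lay inside the young range, and the other old arrays lay far below it and within their own background. Over 3 old and 3 young arrays the means were 7.29 ± 2.71 and 10.46 ± 0.14 (SD, n = 3 each), a difference of -3.17 ± 1.22 (SE, adjusted p = 0.101, limma). Old replicates 1 and 2 alone, by contrast, gave a difference of -4.73 (adjusted p = 4.94e-06 in the limma fit without old replicate 3). Raised to background, their values stood at least 18.6-fold below the young mean on the deposited scale. After quantile normalization they were 5.96 and 6.01, against 9.78, 9.81 and 9.50 on the young arrays, so that bound holds for the deposited scale only. Old replicate 3 alone differed from the young arrays by -0.04, with a 95% interval of -0.39 to 0.31.

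Ms4a1 encodes CD20, a membrane protein that appears late in B cell development in the marrow. It measured 4.60, 4.73 and 9.02 on the old arrays, against 8.91, 9.28 and 8.45 on the young arrays. The same pair of old arrays was low, and old replicate 3 again lay among the young values. Its means were 6.11 ± 2.52 in the old group and 8.88 ± 0.41 in the young group (SD, n = 3 each), a difference of -2.76 ± 1.15 (SE, adjusted p = 0.106, limma). Without old replicate 3 it differed by -4.22 (adjusted p = 2e-05, limma). Raised to background, old replicates 1 and 2 stood at least 6.2-fold below the young mean on the deposited scale. Among all tested probe sets of the array, Ms4a1 ranked at percentile 28.6 for old replicate 1 and 31.9 for old replicate 2, against 91.2 to 95.1 for the young arrays.

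The genes of the complement receptor and the low-affinity IgE receptor were weakly detected. Cr2, which encodes CD21, the complement receptor that lowers the threshold of B cell activation, measured 5.16, 5.14 and 5.63 on the old arrays against 5.58, 5.73 and 5.36 on the young arrays. Fcer2a, which encodes CD23, the IgE receptor of follicular B cells, stood at 4.91, 4.54 and 5.66 against 5.39, 5.66 and 5.48. On the young arrays both were 0.64 to 1.00 above background. On old replicates 1 and 2 both lay below a background that was itself higher than their young values, so the size of their change there was not measurable. The differences over all 6 arrays were -0.24 ± 0.24 for Cr2 and -0.47 ± 0.32 for Fcer2a (SE, adjusted p = 0.392 and 0.235, limma). On old replicate 3 alone Cr2 differed by 0.08 (95% interval -0.31 to 0.47) and Fcer2a by 0.15 (-0.20 to 0.50).

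Cd40 kept a measurable signal throughout. It measured 6.44, 6.38 and 7.71 on the old arrays, against 7.57, 7.79 and 7.22 on the young arrays. Old replicates 1 and 2 were below all young arrays, and only 0.15 and 0.17 above their background, whereas old replicate 3 lay inside the young range. The difference was -0.68 ± 0.40 (SE, adjusted p = 0.186, limma). Without old replicate 3 Cd40 fell by 1.12, or 2.17-fold (adjusted p = 0.00168, limma). Its percentile on the array was nevertheless 87.8 and 86.4 on old replicates 1 and 2, against 80.9 to 87.3 on the young arrays. After quantile normalization the old mean was therefore higher, by 0.28 ± 0.20 (SE, adjusted p = 0.362, limma).

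Among the receptors for BAFF and APRIL, Tnfrsf13c stayed above background on every array. The BAFF-R transcript measured 7.16, 6.81 and 7.97 on the old arrays, against 8.02, 8.17 and 7.84 on the young arrays. It exceeded background by 0.88 and 0.61 on old replicates 1 and 2 and by 2.94 on old replicate 3, against 3.27 to 3.43 on the young arrays. The means were 7.31 ± 0.59 and 8.01 ± 0.16 (old and young, SD, n = 3 each), a difference of -0.69 ± 0.33 (SE, adjusted p = 0.126, limma). Without old replicate 3 it fell by 1.02, or 2.03-fold (adjusted p = 0.00154, limma), and old replicate 3 alone differed by -0.04 (95% interval -0.41 to 0.32). Its rank within the array ran the other way, at percentile 91.9 or above for old replicates 1 and 2 against 86.7 to 90.1 for the young arrays. Quantile normalization accordingly turned the difference to 0.55 ± 0.28 (SE, adjusted p = 0.234, limma).

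Tnfrsf13b, the TACI gene, varied least among the young arrays. It measured 6.39, 6.02 and 6.21 on the old arrays, against 6.08, 6.10 and 6.07 on the young arrays, whose range of 0.03 compares with a median range of 0.211 over all probe sets. The groups overlapped, and the difference was 0.13 ± 0.20 (SE, 95% interval -0.36 to 0.61, adjusted p = 0.599, limma). It was not called without old replicate 3 either (0.13 ± 0.15, SE, adjusted p = 0.456, limma). Sign and size depended on the scaling. With arrays centred on their medians the difference was -0.13, and after quantile normalization it was 0.75 ± 0.30 (SE, 95% interval 0.01 to 1.49, adjusted p = 0.213, limma). Old replicate 2 lay 0.18 below its background, and the other 5 arrays lay above theirs.

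Tnfrsf17, the BCMA gene, was within background on all 6 arrays. Its values were 4.31, 4.39 and 4.22 on the old arrays and 3.73, 3.68 and 3.60 on the young arrays. The old values all lay above the young values, as at 36.1% of all tested probe sets, and it was the single gene of the set whose groups did not overlap (the old arrays lay wholly below the young ones for 0 of 8 genes and at 22.9% of probe sets). The difference did not pass the threshold (adjusted p = 0.101, limma), and it was called without old replicate 3 (adjusted p = 0.0024, limma) and with old replicate 3 as the only old array (adjusted p = 0.0472, limma). After quantile normalization the difference was 0.08 ± 0.19 (SE, adjusted p = 0.785, limma), and the groups overlapped, at 3.84, 3.91 and 4.31 for the old arrays against 3.98, 3.92 and 3.92 for the young arrays. Neither group was above background, so no difference of this gene is a measured size of change.

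Transcription start windows from RefSeq were available for 6 of the 8 genes. They are shown for Cd72, the gene that differed most, and for Tnfrsf13c, which stayed above background on every array. The 250 bases before the annotated start were searched on both strands for GAGGAA, the core recognised by PU.1 and Spi-B, regulators of B cell genes, for CCCNNGGG, a core of the EBF1 site, and for the TATAAA box. Capitals mark the GAGGAA core, which reads TTCCTC on the strand shown.
Cd72, GRCm38.p6, chr4:43454627-43454876, minus strand: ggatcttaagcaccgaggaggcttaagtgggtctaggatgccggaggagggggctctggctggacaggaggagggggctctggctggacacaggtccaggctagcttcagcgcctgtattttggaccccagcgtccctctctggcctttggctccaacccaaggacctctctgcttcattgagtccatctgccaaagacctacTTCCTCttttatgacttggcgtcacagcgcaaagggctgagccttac
Tnfrsf13c, GRCm38.p6, chr15:82224381-82224630, minus strand: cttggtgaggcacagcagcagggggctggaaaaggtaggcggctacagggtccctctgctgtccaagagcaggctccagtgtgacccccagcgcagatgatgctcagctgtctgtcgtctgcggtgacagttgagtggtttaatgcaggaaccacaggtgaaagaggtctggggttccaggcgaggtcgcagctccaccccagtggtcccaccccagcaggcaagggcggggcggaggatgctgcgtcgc
The Cd72 window held the core 41 bases before the start and the Tnfrsf17 window held it 114 bases before, and it was not among the letters of the windows of Cr2, Fcer2a, Tnfrsf13b or Tnfrsf13c. It occurs in 23.3% of the 32851 windows of the table. The EBF1 core occurs in 11.8% and in none of the windows of the set. The TATA box occurs in 12.4%, and it was found for Tnfrsf17 and for 1 of 3 starts of Fcer2a.

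Seen together, the genes differed in how they behaved on old replicates 1 and 2. The median difference of the 8 genes over 3 old and 3 young arrays was -0.58, beside 0.35 over all tested probe sets, so the set lay 0.93 below the shift of all probe sets. After quantile normalization these medians were -0.15 and 0.09, and 4 of 8 genes had lower old means, beside 6 of 8 as deposited. With the dimmest 30% of probe sets left out, the median over the remaining ones was -0.1 on the deposited scale. The 0.93 thus depends on the dim probe sets that are counted. Without old replicate 3, 6 of 8 genes were called lower and 1 higher (limma, adjusted p under 0.05), beside 30.2% and 52.2% of all tested probe sets. Of these 6, Cd40 and Tnfrsf13c were above background on both old arrays, and Ms4a1, Cd72, Cr2 and Fcer2a were not. The shares of 30.2% and 52.2%, here and beside the related lists below, include 9750 probe sets within background on all 6 arrays. Of the 8 genes, 1 was within background on all 6. Shares among probe sets detected on the young arrays were not tested. The count of 6 of 8 therefore does not set these genes apart from other detected ones. When old replicate 3 was the only old array, 0 of 8 were called lower and 1 higher, beside 5.24% and 1.76% of all tested probe sets. That lone array is assumed to vary like the young ones. On it 6 of 8 genes lay inside the young range, where 26.4% of all probe sets did, and Tnfrsf13b and Tnfrsf17 lay above it. This count depends on the width of that range. It was 0.25 to 0.82 for the 6 genes inside, 0.03 for Tnfrsf13b and 0.13 for Tnfrsf17, beside a median of 0.211 over all probe sets.

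**Figure D2:**
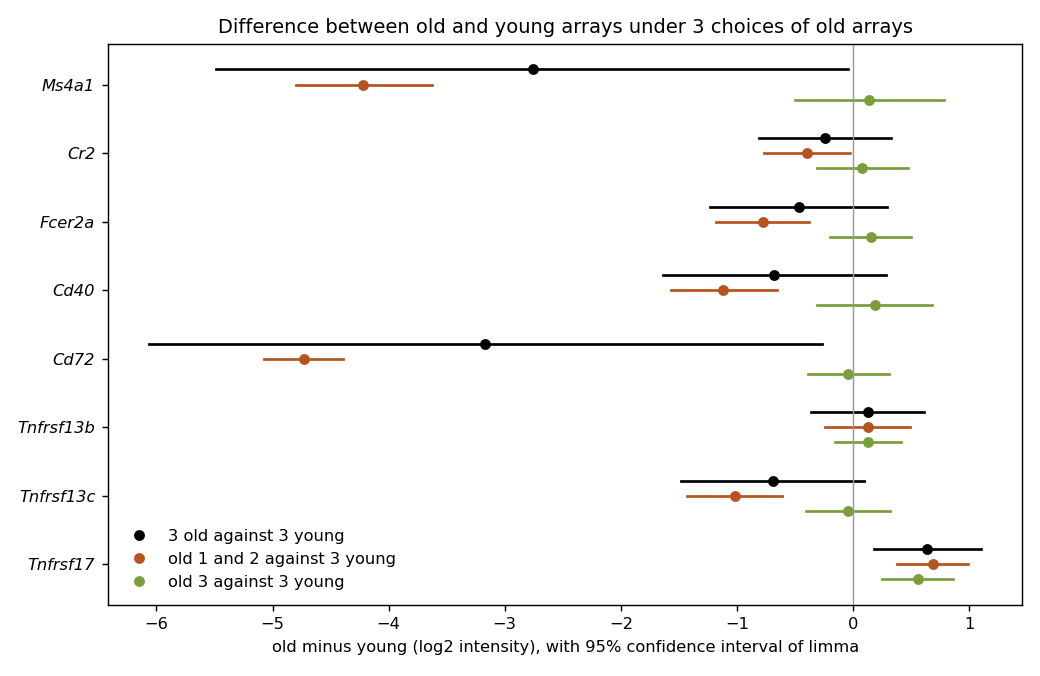
Old minus young difference in log2 intensity with the 95% interval of limma, for each gene, with 3 old arrays (black), old replicates 1 and 2 (brown) and old replicate 3 (green), each against 3 young arrays. Cd72 is at -3.17, -4.73 and -0.04 in the 3 fits, and Tnfrsf13b is at 0.13 in all of them.

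**Figure D3:**
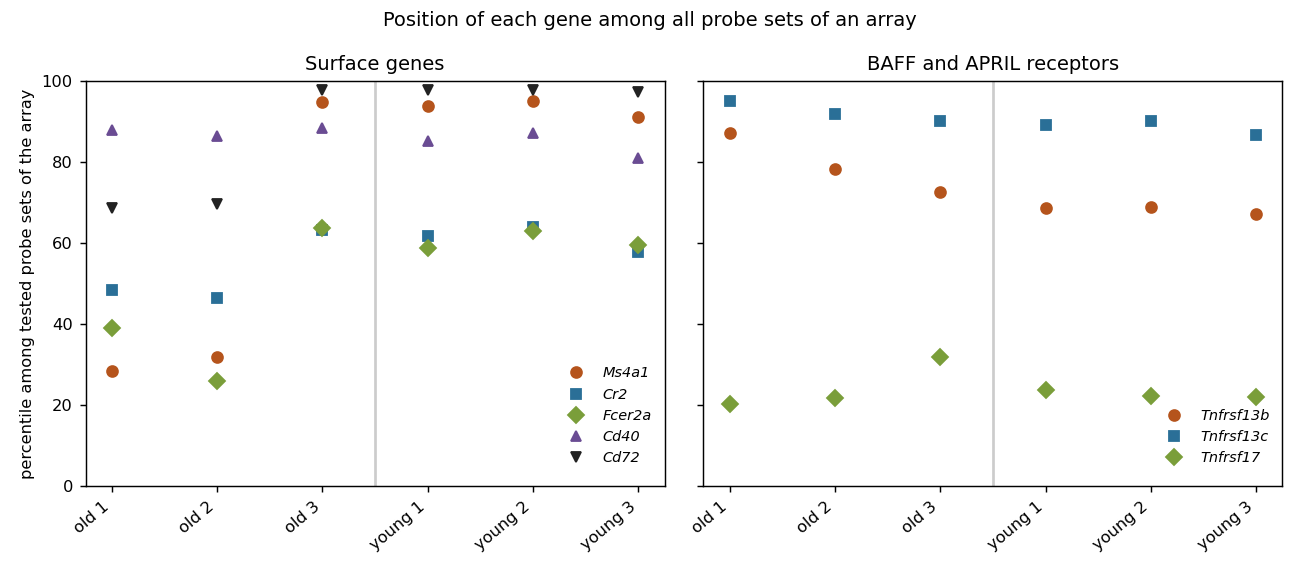
Percentile of each gene among the 23410 tested probe sets of the same array, for the surface genes (left) and the BAFF and APRIL receptors (right). Ms4a1 is at 28.6 and 31.9 on old replicates 1 and 2 and above 90 on the other arrays, while Tnfrsf13c is at 86.7 or above on all 6.

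The ligands and partners of these receptors were examined next, by a list of 10 genes of which 6 had a probe set of their own. None passed the threshold over 3 old and 3 young arrays (adjusted p from 0.101 to 0.906, limma), and 4 had lower and 2 higher old means. Their median difference was -0.53. Ptpn6 encodes SHP-1, the phosphatase that CD72 recruits, and it measured 6.72, 6.49 and 8.81 on the old arrays against 8.99, 8.96 and 8.82 on the young arrays. All 3 old values were below the young ones, old replicate 3 by less than the range of the young arrays. Adam10, the protease that sheds CD23, stood at 3.88, 5.06 and 8.46 against 8.34, 8.45 and 8.56, and Cd81, the tetraspanin partner of CD21, at 6.84, 7.29 and 8.75 against 8.57, 8.53 and 8.86. These 3 genes fell when old replicate 3 was left out (adjusted p = 2.51e-05, 8.53e-05 and 0.000404, limma). In that fit 30.2% of all tested probe sets were called lower and 52.2% higher. Adam10 was then within background on both remaining old arrays. Tnfsf13b, the BAFF gene itself, was at 5.05, 4.96 and 4.34 on the old arrays against 4.38, 4.52 and 4.63 on the young arrays, above background on 1 of 6 arrays. Both it and Cd40lg were called higher without old replicate 3, from values within background. Cd40lg, the CD40 ligand gene of T cells, was within background on all 6 arrays, with a difference of 0.49 ± 0.20 (SE, adjusted p = 0.104, limma). Sema4d, a ligand of CD72, differed by -0.03 ± 0.21 by its brighter probe set and by 0.57 by the other (SE of the first, adjusted p = 0.906, limma).

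Of 15 genes of TRAF and NF-kB signalling below CD40 and BAFF-R, 12 were measured, and 7 had lower and 5 higher old means, with a median difference of -0.18. Here too 0 passed the threshold (lowest adjusted p 0.101, limma). Traf6, the adaptor that links CD40 to canonical NF-kB, measured 3.98, 3.92 and 6.87 on the old arrays against 6.87, 7.20 and 7.12 on the young arrays. Birc2, which encodes a ubiquitin ligase of the TRAF complex, stood at 5.59, 4.56 and 7.21 against 7.70, 7.83 and 8.10. Both lay within background on old replicates 1 and 2. The other probe set of Birc2 differed by only -0.08, so its probe sets disagree. Traf5 differed by -0.77 ± 0.28 and the kinase gene Ikbkb by -0.58 ± 0.22 (SE, adjusted p = 0.101 each, limma). Like Traf6 and Birc2, both were within background on old replicates 1 and 2, so these are not measured sizes of change. Nfkb2, whose product is processed to p52 in the non-canonical branch, measured 6.63, 6.44 and 6.74 on the old arrays against 6.28, 6.40 and 6.36 on the young arrays, a difference of 0.26 ± 0.20 (SE, adjusted p = 0.294, limma). Map3k14, the kinase NIK, differed by 0.22 ± 0.22 (adjusted p = 0.392), Ikbkg by 0.12 ± 0.20 (adjusted p = 0.608) and Traf1, within background on all 6 arrays, by 0.50 ± 0.22 (adjusted p = 0.115, each SE and limma). Without old replicate 3, 6 of the 12 were called lower and 1 higher, beside 30.2% and 52.2% of all tested probe sets.

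Other genes of mature B cells were measured for 25 of 28 listed, and 16 had lower and 9 higher old means, with a median difference of -0.99. None passed the threshold (limma, lowest adjusted p 0.101), with 7 lower and 3 higher at an unadjusted p under 0.05, beside 5136 lower and 5830 higher of all 23410 probe sets. Cd37, a tetraspanin of B cells, measured 6.45, 5.88 and 9.02 on the old arrays against 9.44, 9.56 and 9.22 on the young arrays. H2-Ob, which encodes a chain of the class II modulator H2-O, stood at 6.63, 6.24 and 7.66 against 8.02, 8.15 and 7.96. In both the old arrays were all below the young ones, with old replicate 3 nearest. Cd1d1, which presents lipids to T cells, differed by -1.12 ± 0.28 and Fcgr2b, the inhibitory IgG receptor, by -0.74 ± 0.26 (SE, adjusted p = 0.101 each, limma). Both lay within background on old replicates 1 and 2, so these differences are not measured sizes of change. Higher old means were led by Cxcr5, Ccr6 and Cd80, which lay within background on all 6 arrays. Cd83, an activation marker, was at 6.25, 6.19 and 5.58 on the old arrays against 5.44, 5.55 and 5.47 on the young arrays (adjusted p = 0.132, limma), within background on old replicates 1 and 2. Without old replicate 3, 16 of the 25 were called lower and 5 higher, beside 30.2% and 52.2% of all tested probe sets. With old replicate 3 as the only old array 0 were called in either direction, beside 5.24% lower and 1.76% higher.

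Plasma cell genes, the setting in which Tnfrsf17 is mainly used, were measured for 8 of 8 listed, and 5 had lower and 3 higher old means (median difference -0.23). None passed the threshold (lowest adjusted p 0.101, limma). On old replicates 1 and 2, 0 of the 8 lay above background, so differences that include these arrays are not measured sizes of change. Mzb1, a chaperone of immunoglobulin assembly, measured 5.85, 6.06 and 7.19 on the old arrays against 7.95, 8.02 and 8.48 on the young arrays. It was lower on old replicate 3 alone as well (-0.96 ± 0.21, SE, adjusted p = 0.042 in the limma fit without old replicates 1 and 2). Irf4, a regulator of pre-B and plasma cells, measured 4.60, 4.31 and 7.99 on the old arrays against 8.05, 8.07 and 8.02 on the young arrays. Ell2 and Xbp1 differed by -0.88 ± 0.44 and -0.37 ± 0.27 (SE, adjusted p = 0.14 and 0.252, limma). Derl3 differed by 0.51 ± 0.23 and Jchain by 0.21 ± 0.31 (SE, adjusted p = 0.116 and 0.563, limma). Prdm1, the master regulator of plasma cells, was, like Tnfrsf17, within background on all 6 arrays.

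**Figure D4:**
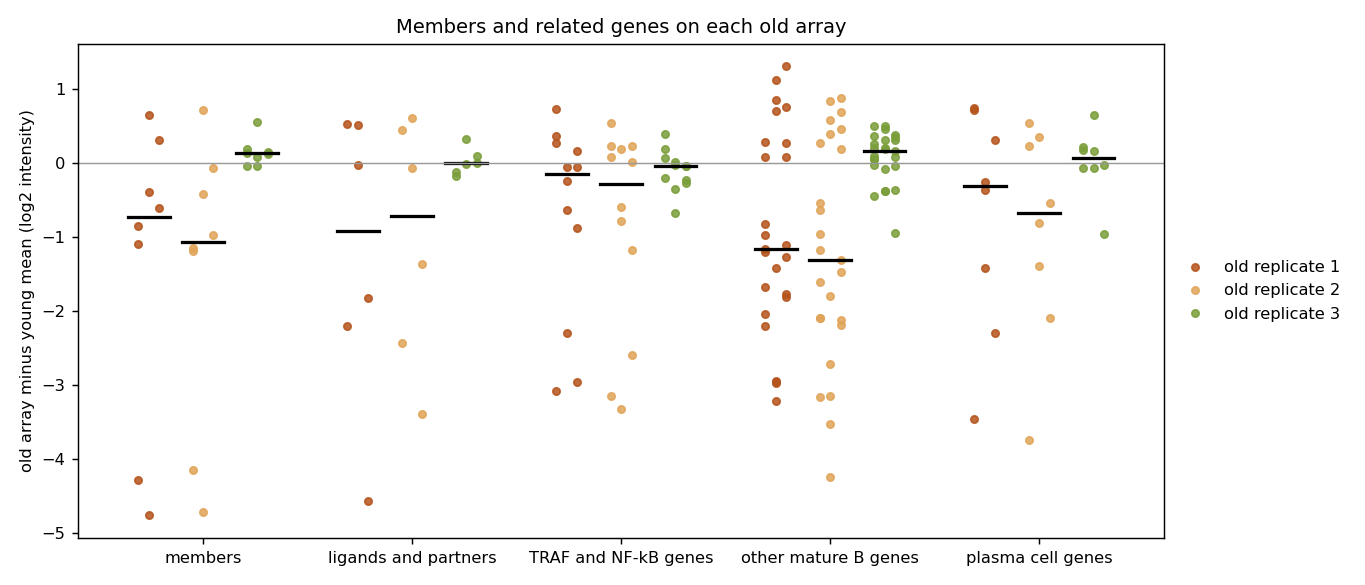
Each old array minus the young mean, in log2 intensity, for the 8 genes of the set and 4 lists of related genes (points are genes, bars are medians). On old replicates 1 and 2 the medians are -0.72 and -1.06 for the set and -1.16 and -1.30 for other mature B genes, and on old replicate 3 they are 0.13 and 0.17.

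Some genes of the set also varied within the young group. Ms4a1 ranged over 0.82 and Cd40 over 0.57 among the young arrays, and their SDs were 0.41 and 0.29, where the median young SD of all tested probe sets was 0.111. The SD of Ms4a1 stood at percentile 98.7 of all tested probe sets, while those of Fcer2a and Cd72 stood at 63.6 and 64.9 and those of Tnfrsf17 and Tnfrsf13b at 23.0 and 1.82. Young replicate 3 was the lowest young array for 7 of 8 genes, all but Fcer2a, where 37.8% of all probe sets were lowest on it. It was lowest for 20 of 25 other mature B genes too, among them Fcmr, which encodes the Fc receptor of IgM, at 8.01, 8.36 and 7.59 on young replicates 1, 2 and 3. Young replicate 3 was lowest for 5 of 5 B lineage markers as well, so this was not particular to mature B genes. The difference of young replicate 3 from the mean of young replicates 1 and 2 was -0.25 in the median of the set. It was -0.25 in the median of the other mature B genes and -0.11 in that of the B lineage markers. Markers of several other cell types were mostly higher on it. Young replicate 3 was the highest young array for 8 of 8 neutrophil markers, by 0.14 to 1.14, beside 36.5% of all tested probe sets. The same held for 6 of 8 monocyte markers, of which 3 lay above background there, and 6 of 8 T cell markers, of which 4 did. It held for 4 of 4 erythroid markers, all above background there, and for 5 of 6 dendritic cell markers, of which 3 were. For NK cell and plasma cell markers it held for 2 of 6 each. Young replicate 3 was highest for 8 of 13 pro-B and pre-B markers as well. These were led by Dntt, the terminal transferase of pro-B cells, at 6.69, 6.59 and 8.18 on young replicates 1, 2 and 3. Their part in the spread of the set was not tested.

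**Figure D5:**
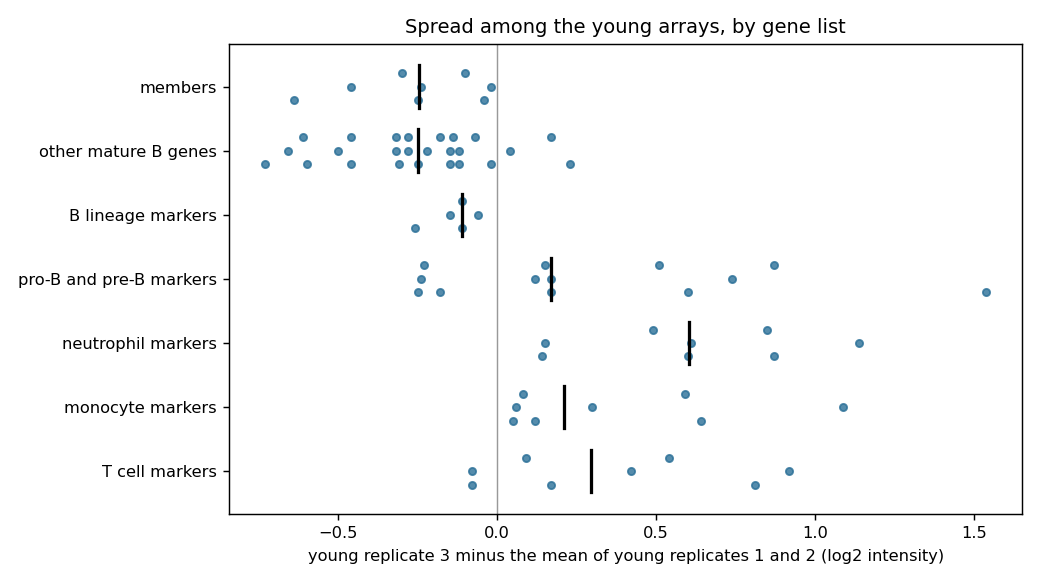
Young replicate 3 minus the mean of young replicates 1 and 2, in log2 intensity, by gene list (points are genes, black bars are medians). The medians are -0.25 for the set and for other mature B genes, -0.11 for B lineage markers, 0.17 for pro-B and pre-B markers and 0.60 for neutrophil markers.

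Among the old arrays, old replicate 3 lay above the young range for 13 of 25 other mature B genes and below it for 5, where 41.7% and 31.8% of all tested probe sets did. Bank1, a B cell adaptor, was at 8.48 on old replicate 3 against 8.28, 8.46 and 7.75 on the young arrays, and Spib at 9.38 against 8.91, 8.95 and 8.81. Of 13 pro-B and pre-B markers, 2 were called lower on it, beside 5.24% of all tested probe sets. Igll1, part of the surrogate light chain, differed by -1.28 ± 0.26 and Bst1 by -1.37 ± 0.14 (SE, adjusted p = 0.0346 and 0.00817 in the limma fit without old replicates 1 and 2). Of 8 neutrophil markers, old replicate 3 lay below the young range for 3, inside it for 4 and above it for 1. Ly6g lay furthest below the young mean, at 6.22 against 7.52, 7.28 and 8.54. Of these markers 8 of 8 lay above background on old replicate 3 and on each young array. On old replicates 1 and 2 the summed intensity of the 8 neutrophil markers was 1949 and 4724, against 8151 on old replicate 3 and 7755 to 9980 on the young arrays. Such a sum is weighted to the brightest marker, S100a8, at 10.30 and 11.48 on old replicates 1 and 2 against 11.30 to 11.47 on the young arrays. Taken singly, 7 of the 8 markers lay below the young range on old replicate 1, and 7 did on old replicate 2. The summed intensity of all tested probe sets was lower on the same arrays too, at 1417119 and 1648921 for old replicates 1 and 2 and 3212024 for old replicate 3, against 3373848 to 3495148 for the young arrays. The part of the neutrophil markers in the differences was not tested. T cell markers, NK cell markers and dendritic cell markers were at or near background, with 0 to 2 of 8, 0 to 1 of 6 and 1 to 2 of 6 above it on the old arrays, against 1 to 4, 2 and 2 to 3 on the young arrays. Of 4 measured erythroid markers, 1, 1 and 2 lay above background on old replicates 1, 2 and 3, against 3 to 4 on the young arrays.

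For each gene of the set the profile over the 6 arrays was compared with those of 18609 named genes by Pearson's r, as a description. The points share the split among the old arrays, so high values are common, and 1008 genes had r above 0.99 with Cd72 and 312 with Ms4a1. The nearest profiles were those of Cnr2 and Cited2 for Ms4a1 (r = 0.9997 and 0.9989), and those of Itsn2 and Atf7ip for Cd72 (0.9998 each). For Cd40, with 5 genes above that value, they were Fcmr (0.9958) and Pik3c2b (0.9917). Cr2 was nearest to Pik3c2b (0.9861) and Btla (0.9773), and Fcer2a to Naa60 (0.9965) and Ly6d (0.9957). Tnfrsf13c was nearest to Zfp36l1 (0.9967) and Rps13 (0.9955), and Tnfrsf13b to Lrrc10b (0.9847) and Helz2 (0.9815). Tnfrsf17 was nearest to Cercam (0.9992) and Tekt1 (0.9984), although its own values lay within background.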

How the data were processed

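The submitters' processing notes name RMA, which gives 1 intensity per probe set, and no version or option of it. The deposited intensities ran from 3.58 to 8502 on a linear scale and were put on the log2 scale first. The table holds 28940 probe sets, of which the platform annotation pairs 21789 with 1 gene, 1621 with several and 5530 with none; the 23410 with a gene were tested. Old and young arrays, 3 each, were compared with limma 3.58.1 in R 4.3.3, with age group as the only factor, with 2-sided p-values adjusted by Benjamini-Hochberg over all tested probe sets. The threshold was an adjusted p under 0.05, and the number of arrays limits the precision. A listed gene with several probe sets is given by the brightest. Tables were made with pandas 2.3.3 and numpy 2.4.6 under Python 3.11.15, and plots with matplotlib 3.10.9. The code was tested on simulated data.

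The genes and lists, the alternatives and the choice of arrays to leave out were made with earlier results of these data known. All 8 genes are named. Of each related list, the rule names up to 4 genes in each direction with the smallest p, and for each gene of the set the 2 nearest profiles. Genes named beside the spread of young replicate 3 and old replicate 3 (Fcmr, Dntt, Bank1, Spib, Igll1, Bst1 and Ly6g) were chosen after their values were seen. Of the related genes, 10 of 61 had no probe set of their own and are not analysed here.

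Same-numbered old and young arrays had deviations from their group means that correlated at 0.157, 0.15 and 0.279, all above the limit of 0.1, so the numbers of the titles were taken as a pairing in an alternative fit. Differently numbered arrays reached 0.153 too, and the labels name no shared litter or day.

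No detection calls were used. Where every compared old value was within background, it was raised to the background of its array and the fold printed is a lower bound.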

Additional observations from a re-analysis of the deposited data

How the results depend on the processing

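With 3 old and 3 young arrays no gene of the set and 0 of 23410 probe sets were called, and the replicate block, the filter on dim probe sets (which left out Tnfrsf17), all 28940 probe sets, both scalings, trended robust moderation and an offset of 16 left these counts at 0. With adjusted p under 0.1 in the main fit the count of probe sets also stayed at 0. With the replicate number as a block the adjusted p of Ms4a1 was 0.0938 and that of Cd72 0.0817, and the block changed no call. The old arrays decide the rest. Leaving out 1 array at a time gave 0 to 19285 called probe sets and 0 to 39 of 51 related genes, the upper values without old replicate 3, and 0 without any other. The differences then ran from -4.22 to -2.01 for Ms4a1, -0.40 to -0.16 for Cr2, -0.78 to -0.22 for Fcer2a, -1.12 to -0.45 for Cd40, -4.73 to -2.37 for Cd72, 0.03 to 0.22 for Tnfrsf13b, -1.02 to -0.44 for Tnfrsf13c and 0.60 to 0.69 for Tnfrsf17.

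Estimated array weights, whose iteration stopped before convergence and which gave old replicate 3 the lowest weight (0.0447), called 19998 probe sets and 41 related genes. Values were -4.18 for Ms4a1, -0.44 for Cr2, -0.91 for Fcer2a, -1.18 for Cd40, -4.68 for Cd72, -1.17 for Tnfrsf13c and 0.70 for Tnfrsf17, all called, and -0.02 for Tnfrsf13b, turned in sign. Without old replicates 1 and 2, 1638 probe sets and 1 related gene were called. Ms4a1 (0.14), Cr2 (0.08), Fcer2a (0.15) and Cd40 (0.19) turned in sign uncalled, and Tnfrsf17 (0.56) was called. Quantile normalization turned Cd40 (0.28) and Tnfrsf13c (0.55), and moved Tnfrsf13b to 0.75 and Tnfrsf17 to 0.08, both uncalled, and centring turned Tnfrsf13b (-0.13). Values of Tnfrsf17 lie within background and give no size of change. Centring and quantile normalization moved the median difference of all probe sets to 0.10 and 0.09, beside 0.35, and the filter on dim probe sets moved it to -0.1. With background at the 90th or 99th percentile, 34 or 23 of 48 values of the set lay above it, beside 33, and at the 99th Cd40 and Tnfrsf13c were within it on old replicates 1 and 2. The mean over all probe sets of a gene was not run, since each has 1. Beyond the arrays left out and the scaling itself, the cause was not tested. Values within background on old replicates 1 and 2 limit what can be sized.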
